A study of Mus musculus with 2 samples.

Results

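Cd5, Cd6 and Cd69 are 3 of the 32285 genes counted in single thymocytes of the mouse, and they were chosen by name as genes whose level is commonly read as a mark of signal strength through the T cell receptor (TCR). Invariant natural killer T (iNKT) cells, T cells with a semi-invariant TCR that sees lipids on CD1d, had been sorted from the thymus of control (Ctrl) and T-KO mice. In T-KO mice, both Kidins220 alleles are floxed (Kidins220 fl/fl) and are deleted by Cre under the proximal Lck promoter, which acts early in the development of αβ T cells and not in iNKT cells alone. Stage 0 cells were sorted as TCRβ+ CD1d tetramer+ CD24+ NK1.1- and stage 3 cells as TCRβ+ CD1d tetramer+ NK1.1+ CD24- CD44+, from pools of 4 thymi per genotype, in duplicate, which gave 8 populations. The mice were kept on a C57BL/6 background, and the study's methods give a wide age range for all its mice but no age for the animals of this library. Each population was marked with a hashtag antibody, and all 8 were run together as 1 droplet library read from the 5′ end of transcripts.

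CD5 and CD6 are related surface receptors of T cells with scavenger receptor cysteine-rich domains. Their cytoplasmic tails recruit enzymes and adaptors that tune the TCR signal, and CD5 is set during selection in the thymus in proportion to how strongly the TCR is engaged. CD69 is a C-type lectin-like receptor that appears soon after activation of lymphocytes, by the antigen receptor or by interferon, and holds cells in tissue by removing the egress receptor S1PR1 from the surface.

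Hashtag counts lay almost wholly on the rows named 11 to 18, while the labels number the antibodies from 1. No label pairs these rows with a stage or a genotype, so each row is given by its number and no Ctrl against T-KO comparison was made. Of 16179 barcodes, 10007 cells were kept, those with at least 1000 genes, at most 5% mitochondrial UMIs (unique molecular identifiers) and at least 80% of at least 10 hashtag UMIs on 1 row. A row held 577 to 2162 cells and 2283162 to 14601545 gene UMIs, with a median of 3258 to 3804 UMIs a cell in rows 12, 14, 16 and 18 and of 6500 to 8068 in rows 11, 13, 15 and 17. For short, rows 11, 13, 15 and 17 are called the odd rows and the others the even rows. Levels are CPM, the UMIs of a gene per 1000000 gene UMIs over the summed cells of a set, and are compared only within a gene. All intervals are at 95% and cover counting error only, and with 1 library there was no replicate test. Fewer cells of a type and less RNA per cell cannot be told apart in a summed level.

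The labelled cell type held only in part. The transcription factor gene Tbx21, a marker of stage 3 iNKT1 cells, lay at 168 to 216 CPM in the even rows and at 2.78 to 5.14 CPM in the odd rows. In the even and odd rows, the iNKT marker Trav11, a TCR gene segment, lay at 39.5 to 56.5 and 0.205 to 1.14 CPM. Klrb1c, the gene of the sort marker NK1.1, lay at 328 to 444 CPM in the even and 4.78 to 6.57 CPM in the odd rows. Cd24a, the gene of CD24, lay at 23.3 to 34.2 and 313 to 365 CPM. By these 2 genes the even rows resembled the stage 3 sort and the odd rows the stage 0 sort. The genotype of a row was not assigned. In the odd rows, 9.95 to 23.7% of the cells of a row had at least 2 UMIs of the B cell gene Cd79a, and a further 16.5 to 33.2% had at least 5 UMIs of Cst3, a gene of dendritic and myeloid cells. Kidins220 itself lay at 13.9 to 35.2 CPM over the 8 rows and was not used to assign any of them.

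In the genome (GRCm38, which is mm10, GENCODE M21), Cd5 (ENSMUSG00000024669) lies on the minus strand at chr19:10717116-10739002. Cd6 (ENSMUSG00000024670) follows on the same strand at chr19:10789341-10830058, 50338 bases away, with no protein-coding gene between them. Cd69 (ENSMUSG00000030156) lies at chr6:129267325-129275436, also on the minus strand, in the natural killer gene complex beside the lectin gene Clec2d. No annotated gene overlaps any of the 3, so their UMIs do not come from an overlapping or antisense gene of this annotation. Since transcripts were read from their 5′ end, the counted reads of Cd5 come from the region just after its start site. The RefSeq window around that start (GRCm38.p6, chr19:10738925-10739224, minus strand, 250 bases before the start and 50 after it) is shown with matches to the E-box CANNTG in capitals, a motif of basic helix-loop-helix factors, searched on both strands.
Cd5: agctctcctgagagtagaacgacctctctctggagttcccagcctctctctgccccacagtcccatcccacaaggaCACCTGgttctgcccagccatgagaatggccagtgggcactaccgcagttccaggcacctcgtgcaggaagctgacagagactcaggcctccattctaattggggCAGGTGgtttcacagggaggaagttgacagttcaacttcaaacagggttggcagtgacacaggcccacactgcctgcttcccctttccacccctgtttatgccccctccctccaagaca
The window held 2 matches to CANNTG and none to TATAAA. Of the 32851 promoters of the same length in the table, 72.3% held a match to CANNTG and 13.6% a match to TATAAA. Promoters of Cd6 and Cd69 were not analysed here.

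Cd5 and Cd6 were higher in each of the 4 even rows than in any odd row. Cd5 measured 180 CPM in row 12, 204 in row 14, 272 in row 16 and 276 in row 18. In the odd rows it measured 99.1 CPM in row 11, 95.1 in row 13, 96.3 in row 15 and 140 in row 17. The even and odd rows did not overlap, and among the odd rows row 17 stood above the other 3. From the lowest to the highest the order was 13, 15, 11, 17, 12, 14, 16 and 18, and the neighbours 13 and 15, 15 and 11, and 16 and 18 did not differ beyond counting error. Over the 3 members, 21 such pairs of neighbours were compared with unadjusted intervals.

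Cd6 measured 147 CPM in row 12, 171 in row 14, 161 in row 16 and 179 in row 18. In the odd rows it measured 44.2 CPM in row 11, 50.6 in row 13, 56.2 in row 15 and 75.2 in row 17. No neighbours in the order of the even rows differed beyond counting error. The intervals of the lowest, row 12 (138 to 157 CPM), and the highest, row 18 (167 to 191 CPM), did not overlap. The step from row 17 to row 12 was 1.96-fold (interval 1.74 to 2.21). Across all 6696 genes tested (a mean of at least 20 CPM), 28% were likewise higher in all even than in all odd rows, so the lack of overlap is a common pattern here. The log2 ratio of the row medians was 1.29 for Cd5 and 1.64 for Cd6. The T cell receptor subunit gene Cd3e moved with them, at 1268 to 1402 CPM in the even rows and 306 to 655 CPM in the odd rows. Medians of the even and odd rows were 1351 and 490 CPM for Cd3e, 238 and 97.7 CPM for Cd5, and 166 and 53.4 CPM for Cd6. The part of T cell content in these gaps was not tested.

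Cd69 gave no such division. It measured 107 CPM in row 12, 141 in row 14, 78.8 in row 16 and 127 in row 18. In the odd rows it measured 92.6 CPM in row 11, 92.4 in row 13, 56.4 in row 15 and 80.2 in row 17. Row 16 lay below rows 11 and 13, so the ranges overlapped, and rows 16 and 17 did not differ beyond counting error, nor did rows 13 and 11. The plot of levels by row shows the divided pattern of Cd5 and Cd6 beside the mixed pattern of Cd69.

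**Figure D1:**
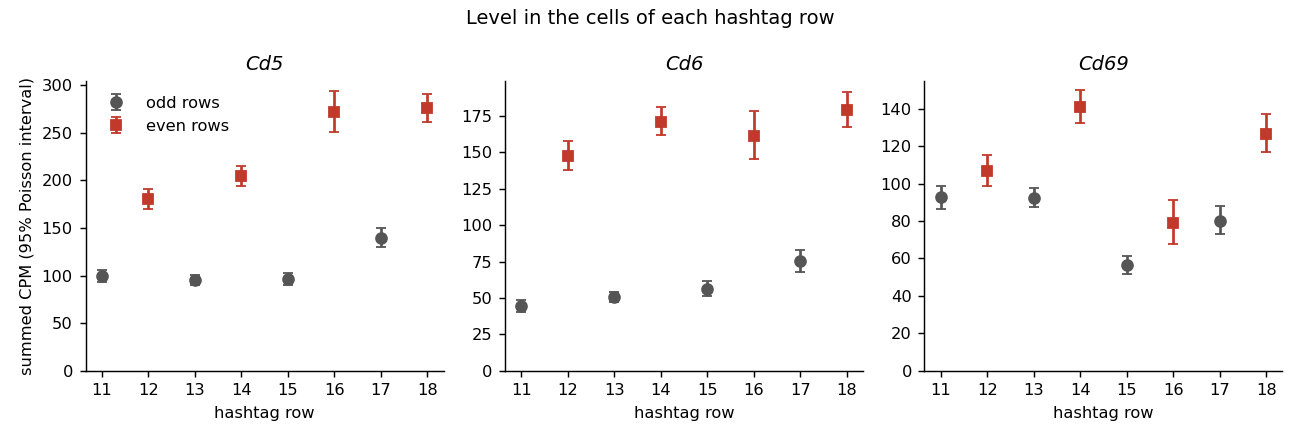
Level of Cd5, Cd6 and Cd69 (CPM over the summed cells, vertical axis) in the hashtag rows 11 to 18 (horizontal axis), with grey circles for odd rows, red squares for even rows and bars for the 95% Poisson interval. All even rows of Cd5 (180 to 276) and Cd6 (147 to 179) lie above all odd rows, whereas the Cd69 ranges overlap.

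The size of these gaps depended on how cells were weighted. With each cell thinned to 2000 UMIs, a Cd5 UMI was found in 29.8 to 42.8% of the cells of an even row and in 17.3 to 24.9% of those of an odd row. Before thinning these shares were 42.3 to 60.5% and 30.4 to 47.2%. Cd6 was found in 25.3 to 31.1% of the thinned cells of an even row and in 10.6 to 16.8% of an odd row. Neither gene's shares overlapped between even and odd rows after thinning, when 552 shallower cells of the even rows and 216 of the odd rows were left out. No share of all genes is given for this measure. With thinned cells the log2 ratio of the row medians was 0.45 for Cd5 and 1.19 for Cd6. For Cd69 the log2 ratio was 0.44, and with the CPM of each cell averaged instead of summed it turned to -0.12.

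The odd rows were then divided, in this order, into cells with at least 2 Cd79a UMIs (810 cells), at least 5 Cst3 UMIs (972), at least 1 Rag1 UMI (418), at least 2 Ikzf2 UMIs (1106) and the remaining 943. Rag1 encodes a subunit of the recombinase of double-positive thymocytes, and Ikzf2 encodes Helios, a transcription factor raised by strong TCR signals. Cells that matched more than 1 of these gates made up 13.1% of the odd rows and stayed with the gate reached earliest. Of 9 markers listed for stage 0 iNKT cells, 7 had a median of at least 20 CPM in the Ikzf2-positive cells. Ikzf2, which set the gate, was among them. The PLZF gene Zbtb16 and Trav11 were not, at 3.41 to 17.8 and 0 to 1.70 CPM. By the same limit the count was 6 in the Cst3-positive, 5 in the Rag1-positive, 5 in the remaining and 4 in the Cd79a-positive cells. It was 5 in the even rows, so this count alone does not set the Ikzf2-positive cells apart. Whether the Ikzf2-positive cells are iNKT cells was not tested.

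Cd5 was highest in the Ikzf2-positive cells, at 313 CPM in row 11, 243 in row 13, 231 in row 15 and 262 in row 17. In the Rag1-positive cells of the same rows it measured 82.9, 28.0, 23.7 and 28.4 CPM. The ratio within a row ran from 3.77 to 9.73 with a median of 8.93, beyond the counting interval in 4 of 4 rows. In this comparison 30.9% of all tested genes were higher in the Ikzf2-positive cells in 4 of 4 rows and 26% were lower. The low value of 3.77 came from row 11, whose Rag1-positive cells had a median of 3684.5 UMIs against 14409 to 15274 in the other rows. In that row 5 of the 72 Rag1-positive cells held 72.2% of the Cd5 UMIs. Cd3e was at 642 to 699 CPM in the Rag1-positive cells, where Cd5 amounted to a median of 4.09 UMIs per 100 Cd3e UMIs, against 28.7 in the Ikzf2-positive cells.

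Cd6 followed the same order. It measured 137, 108, 127 and 127 CPM in the Ikzf2-positive cells of rows 11, 13, 15 and 17, and 53.8, 37.5, 24.3 and 36.0 CPM in the Rag1-positive cells. The ratios ran from 2.55 to 5.22 with a median of 3.20, higher in 4 of 4 rows where 30.9% of all tested genes were.

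Cd69 also rose from Rag1-positive to Ikzf2-positive cells in each odd row. It measured 27.6, 18.5, 18.1 and 28.4 CPM in the Rag1-positive cells of rows 11, 13, 15 and 17 and 113, 92.5, 78.5 and 78.3 CPM in the Ikzf2-positive cells. The ratios ran from 2.76 to 4.99 with a median of 4.21. All 3 members were therefore higher in the Ikzf2-positive cells in 4 of 4 rows, beyond the counting interval in each row. The median number of UMIs a cell was lower in the Ikzf2-positive cells (4611 to 5962) than in the Rag1-positive cells of rows 13, 15 and 17, and the part of cell size in these ratios was not tested. After thinning, a Cd5 UMI remained in 37.1 to 49.3% of the Ikzf2-positive and 4.11 to 6.84% of the Rag1-positive cells. For Cd6 these shares were 21.3 to 27.3% and 3.42 to 10.8%, and for Cd69 13.1 to 21.03% and 2.74 to 6.84%. Before thinning, a Cd5 UMI was seen in 64.9 to 71.4% and 17.2 to 25% of the cells, a Cd6 UMI in 46.5 to 53.5% and 24.6 to 33.3%, and a Cd69 UMI in 35.2 to 39.5% and 18.8 to 22.7%.

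The members stood in a wider group of genes with that direction. Of all tested genes 30.9% were higher in the Ikzf2-positive cells in 4 of 4 rows and 26% were lower. The list of 20 genes induced by TCR signals holds Ikzf2, which set the gate and is left out of its counts wherever Ikzf2-positive cells are compared. Of the other 19 genes 13 were tested, 12 were higher in the Ikzf2-positive cells in 4 of 4 rows and 1 was lower, with a median log2 ratio of 2.30 against 0.03 over all genes tested. Nr4a1, which encodes the immediate TCR target Nur77, had a median of 326 against 13.6 CPM, and Pdcd1, which encodes the inhibitory receptor PD-1, of 386 against 28.6 CPM. Myc was the member of the list that was lower, at 210 against 307 CPM. Among partners of CD5 and CD6 and other regulators close to the TCR, 11 of 19 tested genes were higher and 4 lower. They included the phosphatase gene Ubash3b at 98.6 against 5.19 CPM and the ubiquitin ligase gene Cblb at 111 against 36.0 CPM, while the adaptor gene Grap2 was lower at 39.1 against 58.4 CPM. Of 15 genes of proximal TCR signalling 8 were higher and 5 lower, among them the kinase genes Fyn (131 against 37.8 CPM) and Lck (510 against 644 CPM). The 6 cell cycle genes were all lower in 4 of 4 rows, and they summed to 1477 to 1756 CPM in the Ikzf2-positive and 2497 to 2740 CPM in the Rag1-positive cells.

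Against the remaining cells, which fell below all 4 gate limits but still held Ikzf2 at 38.6 to 60.1 CPM, the differences were smaller. Cd5 in the remaining cells measured 251 CPM in row 11, 104 in row 13, 141 in row 15 and 176 in row 17. The Ikzf2-positive cells were higher in 4 of 4 rows, with ratios of 1.25 to 2.33 and a median of 1.56, where 19.4% of all tested genes were higher and 16.9% lower in 4 of 4 rows. Row 11, with the highest level, had remaining cells of a median of 2859 UMIs and row 13, with the lowest, of 7120 UMIs. When the CPM of each cell was averaged instead of summed, the median log2 ratio of Cd5 was 0.089, against 0.64 from the sums.

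Cd6 in the remaining cells measured 106, 70.5, 105 and 109 CPM in rows 11, 13, 15 and 17. The Ikzf2-positive cells were higher in 4 of 4 rows, in 2 of them beyond the counting interval, with a median ratio of 1.26. With the CPM of each cell averaged, the median log2 ratio turned from 0.33 to -0.088. Cd69 was higher in the Ikzf2-positive cells of rows 13 and 15, beyond the counting interval, and in rows 11 and 17 it differed by less than that interval. Its median log2 ratio was 0.22, but -0.032 with thinned cells and -0.093 without row 13 or without row 15. TCR-induced genes kept a larger contrast over the same cells: without Ikzf2, 11 of 15 tested were higher in 4 of 4 rows and 1 lower, with a median log2 ratio of 1.33 against 0.01 over all genes tested. Of all tested genes 19.4% were higher and 16.9% lower in 4 of 4 rows. Tnfrsf9, which encodes the costimulatory receptor 4-1BB, measured 181 against 12.6 CPM.

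The non-T cells of the odd rows separated Cd69 from the other members. In the Cd79a-positive cells Cd69 measured 201 CPM in row 11, 247 in row 13, 203 in row 15 and 322 in row 17. This was above Cd69 in every other of the 32 sets of cells made by row and by the gates of the odd and even rows. The ratio to the Ikzf2-positive cells of the same row ran from 1.78 to 4.11 with a median of 2.63, higher in 4 of 4 rows where 14.6% of all tested genes were. After thinning, a Cd69 UMI was found in 27.1 to 41.8% of the Cd79a-positive cells, against 60.8 to 70.7% before it.

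Cd5 and Cd6 were low in the same cells, at 19.5 to 32.2 CPM and 4.36 to 13.8 CPM, both below the Ikzf2-positive cells in 4 of 4 rows, where 62.4% of all tested genes were. Cd5 was at 25.5 to 65.2 CPM and Cd6 at 10.7 to 26.1 CPM in the Cst3-positive cells, and Cd69 was low there too, at 19.9 to 33.0 CPM. All 3 members were below the Ikzf2-positive cells in 4 of 4 rows, where 54.8% of all tested genes were. Cd3e was at 46.5 to 145 CPM in the Cd79a-positive cells, a gene that B cells should lack, against 731 to 896 CPM in the Ikzf2-positive cells. Cd5 amounted to a median of 37.5 UMIs per 100 Cd3e UMIs in the Cd79a-positive and of 28.7 in the Ikzf2-positive cells, and Cd6 to 11.3 and 14.5. Over the rows, the Cd5 ratio ran from 22.2 to 55.3 in the Cd79a-positive and from 27.2 to 42.8 in the Ikzf2-positive cells. Its medians were 14.3 to 18.3 in the gates of the even rows. How much of Cd5 and Cd6 in the Cd79a-positive cells was free RNA was not tested. Cd69 amounted to 386 UMIs per 100 Cd3e UMIs in the Cd79a-positive cells and 10.0 in the Ikzf2-positive cells.

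**Figure D2:**
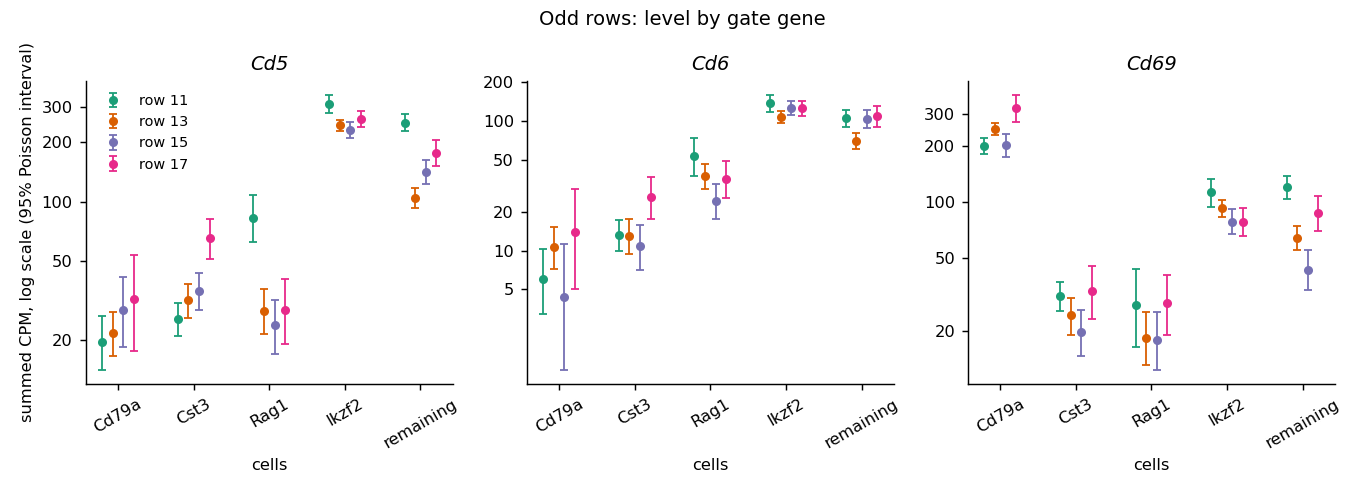
Level of each gene (CPM over the summed cells, log scale) in the odd rows, for cells sorted by gate gene along the horizontal axis, with 1 colour a row and bars for the 95% Poisson interval. Cd5 and Cd6 are highest in the Ikzf2-positive cells, and Cd69 is highest in the Cd79a-positive cells at 201 to 322 CPM.

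Within the Ikzf2-positive cells, detection of Cd5 and Cd6 was linked. After thinning to 2000 UMIs, a Cd6 UMI was present in 29.5 to 40.5% of the cells with a Cd5 UMI and in 13.6 to 20.0% of those without. The gap was 13.1 to 26.1 points and had the same direction in 4 of 4 rows, where 12.1% of the genes tested did so. Cd69 was 2.74 to 8.46 points more frequent in cells with a Cd5 UMI in 4 of 4 rows, but the counting intervals overlapped in each row. Between cells with and without a Cd6 UMI the direction of Cd69 varied, with 1 of 4 rows higher, where 10.3% of genes were higher in 4 of 4. Cells with a Nr4a1 UMI carried Cd5 in 47.1 to 69.4% and cells without in 32.8 to 43.0%, higher in 4 of 4 rows where 12.5% of genes were. Cd6 was also more frequent with Nr4a1 in 4 of 4 rows, by 7.42 to 26.2 points, and Cd69 in 3 of 4. 

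All 3 members were lower in cycling than in non-cycling Ikzf2-positive cells. The 300 Ikzf2-positive cells with at least 2 UMIs of Mki67, a gene of cycling cells, had 142 to 214 CPM of Cd5, against 319 to 468 CPM in the cells with none. The median ratio was 0.458 for Cd5, 0.555 for Cd6 and 0.602 for Cd69, each lower in 4 of 4 rows and beyond the counting interval, where 33.7% of all tested genes were lower. The Mki67-positive cells were far deeper, with a median of 13375 to 15238 UMIs a cell against 3755.5 to 4843. At 2000 UMIs a cell the ratio was 0.477 for Cd5, below 1 beyond the interval in 4 of 4 rows, and 0.464 for Cd6, so in 3 of 4 rows. Cd69 after thinning was lower in 3 of 4 rows and beyond the interval in none. Cells with a Tnfrsf9 UMI (449 cells) had more Cd5 than those without in 4 of 4 rows, with a median ratio of 1.64, where 18.4% of genes were higher. The gap was smaller at equal depth, where the median ratio was 1.13, with 3 of 4 rows above 1 and 1 of 4 beyond the interval. The share of thinned cells with a Cd5 UMI was 44.3 to 56% with and 31.6 to 46% without a Tnfrsf9 UMI, and it was higher with Tnfrsf9 in each of the 4 rows.

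The even rows were divided into cells with at least 4 UMIs of the chemokine gene Ccl5 (1051 cells), cells with at least 2 UMIs of Izumo1r and none of Ccl5 (538) and the other 4169 cells. Izumo1r encodes the folate receptor 4 of T cells. Across these cells Cd5 and Cd69 ran in opposite directions.

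Cd5 measured 142 CPM in the Ccl5-high cells of row 12, 152 in row 14, 225 in row 16 and 217 in row 18. In the Izumo1r-positive cells it measured 263, 296, 337 and 326 CPM in the same order of rows. The ratio of Izumo1r-positive to Ccl5-high cells was 1.49 to 1.94 with a median of 1.68, beyond the counting interval in 4 of 4 rows. Of 6150 genes tested, 13.4% were higher in 4 of 4 rows, and 1.19% were so with a median past 1.5-fold, as Cd5 was. The other cells lay between, at 185 to 275 CPM, and the Izumo1r-positive cells were above them in 4 of 4 rows by 1.18 to 1.42-fold, where 9.04% of genes were. The other cells were in turn above the Ccl5-high cells in 4 of 4 rows, by a median of 1.29-fold, where 20.5% of genes were.

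Cd6 measured 115, 150, 131 and 133 CPM in the Ccl5-high cells of rows 12, 14, 16 and 18 and 206, 172, 178 and 180 CPM in the Izumo1r-positive cells. It was higher in the Izumo1r-positive cells in 4 of 4 rows, with a median ratio of 1.36, but beyond the counting interval in rows 12 and 18 only. Against the other cells its direction varied, with 2 of 4 rows higher, whereas the other cells were above the Ccl5-high cells in 4 of 4 rows by a median of 1.30-fold.

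Cd69 measured 137, 178, 87.1 and 168 CPM in the Ccl5-high cells of rows 12, 14, 16 and 18 and 70.4, 105, 52.0 and 69.2 CPM in the Izumo1r-positive cells. Row 16 was low in both, so the groups overlapped across rows, but within each row Cd69 was lower in the Izumo1r-positive cells. The ratio was 0.412 to 0.597 with a median of 0.551, beyond the counting interval in rows 12, 14 and 18, and 9.25% of all tested genes were lower in 4 of 4 rows, 1.69% with a median past 1.5-fold. Cd69 was lower in the Izumo1r-positive than in the other cells in 4 of 4 rows, where 14.6% of genes were, and lower in the other than in the Ccl5-high cells in 4 of 4 rows, where 6.56% of genes were. Median depth was similar, at 3423 to 3964 UMIs in the Ccl5-high and 3476 to 4483 in the Izumo1r-positive cells. After thinning, a Cd69 UMI was found in 17.6 to 29.2% of the Ccl5-high and 5.63 to 13.4% of the Izumo1r-positive cells (before thinning 27.5 to 42.1% and 18.4 to 24.4%). A Cd5 UMI was found in 25.4 to 40.7% and 41.8 to 56.3% (before thinning 36.1 to 58.2% and 54.3 to 74.0%). With thinned cells neither gene's shares overlapped between the 2 sets, and no share of all genes is given for this measure.

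**Figure D3:**
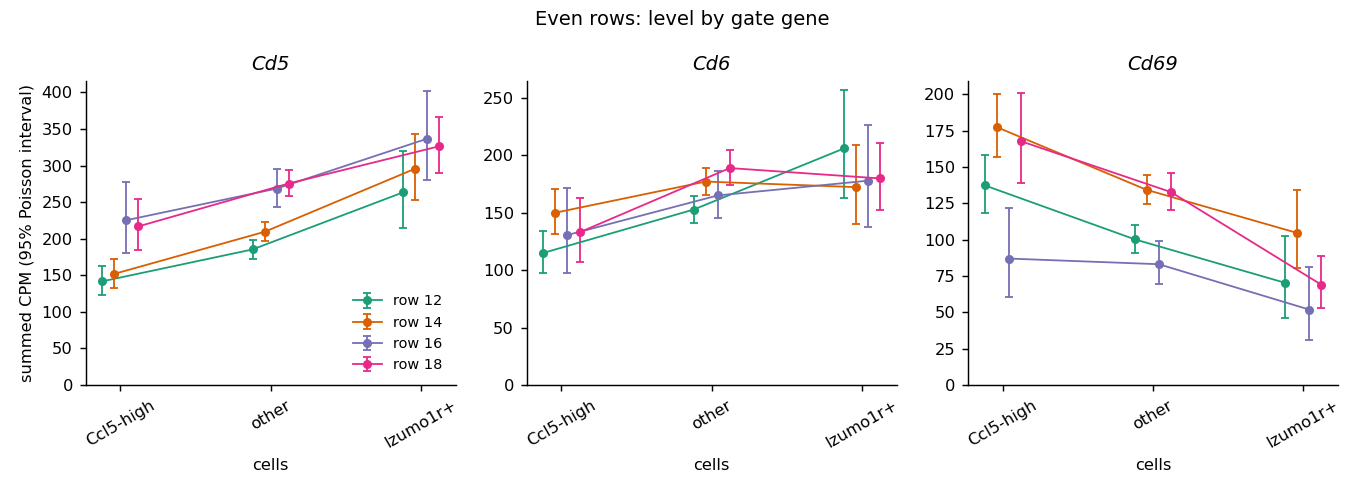
Level of each gene (CPM over the summed cells) in the Ccl5-high, other and Izumo1r-positive cells of the even rows, with 1 line a row and bars for the 95% Poisson interval. Cd5 climbs in each row, from 142 to 225 CPM up to 263 to 337 CPM, and Cd69 falls in each row.

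Genes of the same pathways gave the following counts, beside 13.4% of all tested genes higher and 9.25% lower in 4 of 4 rows. Of 11 TCR-induced genes tested, 5 were higher in the Izumo1r-positive cells in 4 of 4 rows and 0 lower, with a median log2 ratio of 0.54 against 0.03 over all genes. They included the costimulatory receptor gene Icos at 180 against 65.7 CPM and the transcription factor gene Tox at 95.5 against 34.5 CPM. Of 14 genes of proximal TCR signalling 8 were higher and 0 lower, among them Zap70, which encodes the kinase bound by the TCR chains, at 391 against 258 CPM and Cd4 at 44.4 against 12.8 CPM. Of 20 partners and regulators tested 5 were higher and 2 lower, among them Rasa1, a Ras inhibitor gene, at 140 against 71.0 CPM and Ubash3a at 35.9 against 59.5 CPM. Relative to Cd3e, Cd5 stood at a median of 18.3 UMIs per 100 in the Izumo1r-positive and 14.3 in the Ccl5-high cells, and Cd6 at 11.02 and 10.7.

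The genes tied to the role of CD69 leaned the other way. Of 8 egress genes tested, 4 were lower in the Izumo1r-positive cells in 4 of 4 rows and 1 was higher. Of all genes tested in this comparison, 9.25% were lower and 13.4% higher in 4 of 4 rows. Klf2, the transcription factor gene that drives S1pr1, was at 210 against 589 CPM, and S1pr1 itself, at 13.98 against 29.6 CPM, varied in direction. Of 8 natural killer complex genes near Cd69, 3 were lower and 1 higher, among them Klrc1, which encodes the receptor NKG2A, at 62.6 against 284 CPM and Klrb1c, which encodes NK1.1, at 461 against 355 CPM. Clec2d, the nearest protein-coding neighbour before Cd69, was at 261 against 254 CPM and varied in direction. Of 14 dissociation and immediate-early genes tested 3 were higher and 2 lower, and their summed level was 4145 to 8836 CPM in the Izumo1r-positive and 4622 to 7918 CPM in the Ccl5-high cells.

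Cd69 was also higher in a small set of cells rich in an interferon-induced transcript. The 143 cells of the even rows with at least 3 UMIs of Isg15, which encodes a ubiquitin-like protein induced by interferon, had 169 CPM of Cd69 in row 12, 269 in row 14, 240 in row 16 and 204 in row 18. Cells with no Isg15 UMI had 103, 139, 72.7 and 128 CPM. The ratio was 1.59 to 3.29 with a median of 1.79, beyond the counting interval in 4 of 4 rows, where 6.43% of all tested genes were higher. Row 16 had 19 such cells. At 2000 UMIs a cell the ratio was 1.88 to 3.17, again beyond the interval in 4 of 4 rows. Cd5 and Cd6 were beyond the interval in 0 of 4 rows in this split, with median ratios of 0.856 and 1.02.

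In the even rows as a whole, the gap in detection was smaller than in the Ikzf2-positive cells. Cd6 was found in 27.3 to 34.9% of the thinned cells with a Cd5 UMI and 23.0 to 29.3% of those without, higher in 4 of 4 rows where 8.72% of genes were. Cd69 was higher with Cd5 in 1 of 4 rows and with Cd6 in 2 of 4, where 10% of genes were higher with Cd6 in 4 of 4. Between cells with and without a Nr4a1 UMI the direction varied for all 3 members. Cd5 was higher with Nr4a1 in 2 of 4 rows, Cd6 in 1 and Cd69 in 2, from 9 to 50 cells with Nr4a1 a row. The sets of cells were not tested against each other. The spread of Cd5 counts also differed, with a variance of 1.11 to 1.29 times the mean in the thinned cells of the even rows and 1.74 to 2.21 times in the Ikzf2-positive cells.

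**Figure D4:**
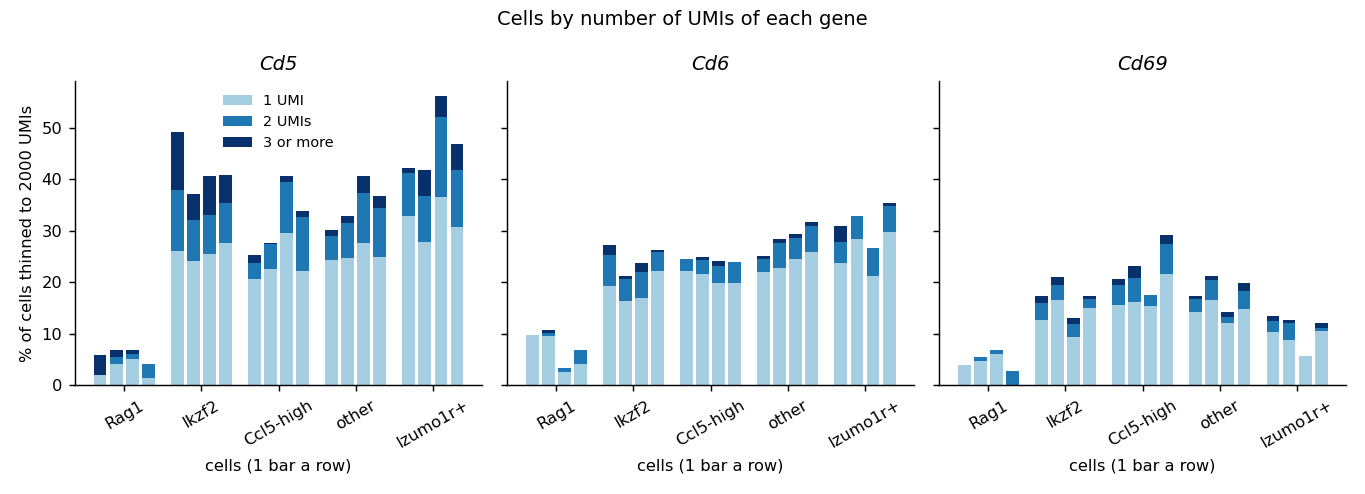
Share of cells (vertical axis, percent) with 1, 2 or at least 3 UMIs of each gene after thinning each cell to 2000 UMIs, with 1 bar a row for Rag1-positive and Ikzf2-positive cells of the odd rows and Ccl5-high, other and Izumo1r-positive cells of the even rows. Cd5 is found in 4.11 to 6.84% of Rag1-positive cells and 37.1 to 49.3% of Ikzf2-positive cells, and for Cd69 the Ccl5-high bars stand above the Izumo1r-positive bars.

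The even rows were also set against the Ikzf2-positive cells alone, which leaves out the B, myeloid, Rag1-positive and remaining cells of the odd rows. Cd5 then overlapped, at 180 to 276 CPM against 231 to 313 CPM. Cd6 stayed higher in each even row than in any odd row, at 147 to 179 CPM against 108 to 137 CPM, where 22.6% of all tested genes were. With thinned cells its shares overlapped, at 25.3 to 31.1% against 21.3 to 27.3%, and with the gates set on thinned cells its log2 ratio turned from 0.39 to -0.078. Cd69 overlapped, at 78.8 to 141 CPM against 78.3 to 113 CPM. The 15 tested TCR-induced genes other than Ikzf2 behaved otherwise, with 12 lower in each even row than in any odd row and 1 higher, Icos. Nr4a1 had a median of 12.97 CPM in the even rows against 326 in the Ikzf2-positive cells, and Pdcd1 of 16.96 against 386. Over all tested genes 44.9% were lower in this way. Of 8 egress genes 4 were higher and 1 lower in the even rows, among them Klf2, which was higher at 406 against 122 CPM. All 7 tested interferon-induced genes were higher in the even rows, while the ranges of Cd69 overlapped.

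Over the 32 sets of cells made by row and gate, Cd5 and Cd6 followed each other closely. Their log2 levels had a Pearson r of 0.947, and within the 20 sets of odd rows and the 12 sets of even rows r was 0.928 and 0.698. All sets came from 1 library and share its depth and free RNA, so these are descriptions. Among 3460 genes, the 5 most like Cd5 were Cd6, Elf1, Lcp2, Foxn3 and Trac, and the 5 most like Cd6 included Lcp2 (r = 0.978), Prkcq, Zap70 and Cd28. Lcp2 encodes the adaptor SLP-76, Prkcq and Zap70 encode kinases of the TCR pathway, and Trac encodes the constant part of the TCR α chain. Cd69 had an r of 0.229 with Cd5 over all sets and of -0.717 over the sets of even rows. The 5 genes most like it were Cd37 (r = 0.893), a tetraspanin gene of lymphocytes, Lnpep, and the mitochondrial genes mt-Nd4, mt-Nd4l and mt-Co3.

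**Figure D5:**
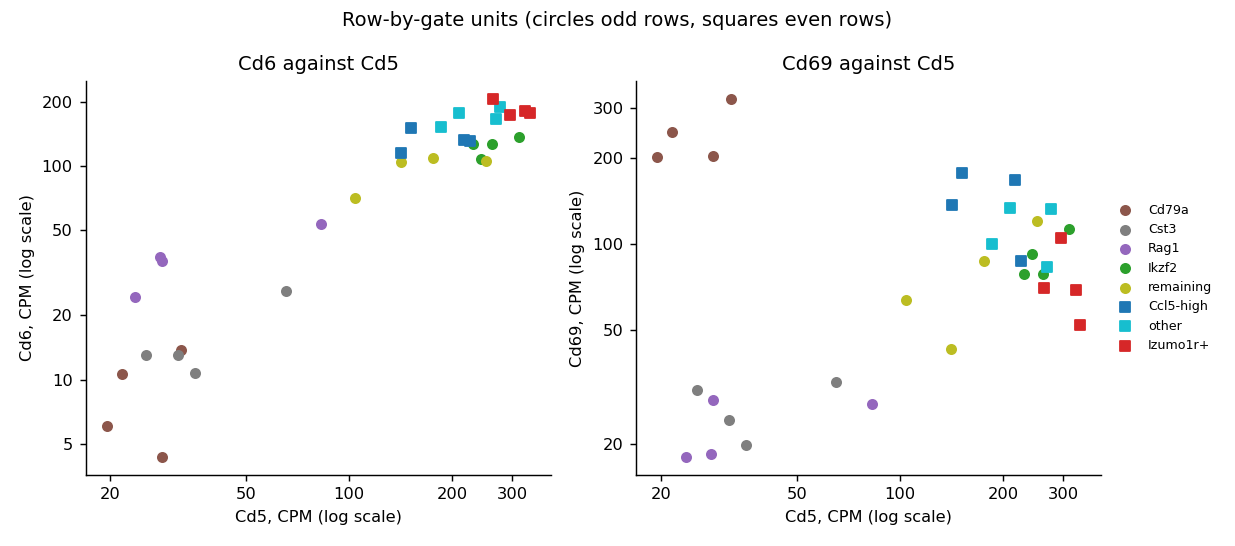
Level of Cd6 (left) and Cd69 (right) against Cd5, in CPM on log scales, with 1 point for each of the 32 sets of cells made by row and gate (circles odd rows, squares even rows). Cd6 climbs with Cd5 (r = 0.947), while the Cd79a-positive cells combine high Cd69 with low Cd5 and the squares of even rows run downward in the Cd69 panel.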

How the data were processed

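The authors ran Cell Ranger 6.0.0 with its prebuilt mouse mm10 reference and deposited UMI counts per gene or hashtag and barcode, without normalization, for 16179 barcodes, 32285 gene rows and 20 hashtag rows. The submitters' processing notes also name Seurat. Rows 11 to 18 held 99.9% of the 34886859 hashtag UMIs. Cells were filtered, assigned and gated as described above, and the choice of the members, gates and gene lists was made with earlier results of these data known. Requiring 1 leading hashtag left out barcodes with mixed hashtags, but doublets with unequal hashtags can pass, doublets within a row remained and no doublet caller was run. Free RNA was not removed.

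Counts were summed and divided by all gene UMIs to give CPM. Intervals are exact Poisson, exact conditional (ratios) and Clopper-Pearson (shares), at 95%. PCR duplicates are collapsed by UMIs. For the share of all genes with a given direction, genes with a mean of at least 20 CPM were used, and the log2 ratios of lists carry a pseudocount of 10 CPM. Co-detection used genes found in at least 10% of cells. Cells were thinned to 2000 UMIs without replacement. The most alike genes had at least 50 CPM and sets at least 20 cells. Named genes are the members, the gate genes, the extremes of the fixed lists and the most alike genes. Others, such as Cd4, Nr4a1, Pdcd1, Myc, Lck, Fyn, Tnfrsf9, Trav11, Zbtb16, S1pr1, Klrb1c, Cd24a and Clec2d, were named after their values were seen. The comparison of even rows with Ikzf2-positive cells, the thinned splits and the removal of cells that match more than 1 gate were chosen after the data were seen. Some named items are not reported here. The calls over all genes were tested on simulated data. The work used Python 3.11.15, numpy 2.4.6, scipy 1.17.1 and pandas 2.3.3. Positions come from GENCODE M21 and the promoter from RefSeq, both on GRCm38. Alternatives are given in the closing section.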

Additional observations from a re-analysis of the deposited data

Results flagged for a closer look

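In 4 of 30 sets of 4 rows, 1 row lay far from the other 3, and chance alone does so in about 1 of 20 sets. Cd5 in the odd rows was highest in row 17, at 140 CPM against 95.1 to 99.1 CPM. Cd5 in the Rag1-positive cells was highest in row 11, at 82.9 CPM against 23.7 to 28.4 CPM, in a set of 72 cells of lower depth than in the other rows. Cd6 in the Cst3-positive cells was highest in row 17, at 26.1 CPM against 10.7 to 13.1 CPM, where Cd3e was also at its highest in these cells, at 259 CPM. Cd6 in the remaining cells was lowest in row 13, at 70.5 CPM against 105 to 109 CPM.

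Barcodes that no comparison used also carried the members. In 4032 barcodes with fewer than 1000 genes or more than 5% mitochondrial UMIs, Cd5 was at 250 CPM, Cd6 at 186 CPM and Cd69 at 186 CPM, above the 144, 92.3 and 95.7 CPM of the assigned cells. Their median was 1167 UMIs against 3828 in the assigned cells, and the part of depth was not tested. In 2140 barcodes without 1 leading hashtag, Cd5 was at 148 CPM, Cd6 at 90.9 CPM and Cd69 at 96.9 CPM.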

How the results depend on the processing

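Of 138 alternatives to the 15 log2 ratios, 110 left the value within its spread over the rows, 22 moved it further and 6 turned its direction. Of 84 that left out 1 row, 80 kept the direction and 4 turned it. The cause was not tested for any of them. With at most 4000 genes a cell, Cd6 in even rows over Ikzf2-positive cells was 0.16 and Cd69 in Ikzf2-positive over Rag1-positive cells was 1.51. With the CPM of each cell averaged, even over odd rows gave 0.33 for Cd5, 0.91 for Cd6 and -0.12 for Cd69, Ikzf2-positive over remaining cells gave 0.089, -0.088 and -0.060, Cd6 in even rows over Ikzf2-positive cells was 0.16 and Cd69 in Ikzf2-positive over Rag1-positive cells was 1.39. With cells thinned to 2000 UMIs, even over odd rows gave 0.45 for Cd5 and 1.19 for Cd6, even rows over Ikzf2-positive cells gave -0.50 and 0.11, and Cd69 was -1.14 in Izumo1r-positive over Ccl5-high cells and -0.032 in Ikzf2-positive over remaining cells. With gate limits lowered by 1 UMI, Cd5 in even rows over Ikzf2-positive cells was 0.082. With limits raised by 1 UMI, Cd5 was 0.96 in Izumo1r-positive over Ccl5-high, 4.37 in Ikzf2-positive over Rag1-positive and 1.06 in Ikzf2-positive over remaining cells, Cd6 was 0.66 in the last of these and Cd69 was 2.59 in Ikzf2-positive over Rag1-positive cells. With gates set on thinned cells, Ikzf2-positive over remaining cells gave 1.10 for Cd5 and 0.90 for Cd6, even rows over Ikzf2-positive cells gave -0.72 and -0.078, and Cd69 was -1.49 in Izumo1r-positive over Ccl5-high and 1.37 in Ikzf2-positive over Rag1-positive cells, the last from 3 rows because Cd69 had no UMI in 1.

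Leaving out each row in turn, Cd5 in even rows over Ikzf2-positive cells ran from -0.30 to 0.11, above 0 without row 12 or 14, and Cd69 in Ikzf2-positive over remaining cells ran from -0.093 to 0.53, below 0 without row 13 or 15. A lower gene limit with a higher mitochondrial limit, a stricter hashtag rule and a total without ribosomal and predicted genes kept every value within its spread. Leaving out cells that matched more than 1 gate, chosen after the data were seen, kept even over odd rows and Ikzf2-positive over Rag1-positive cells within their spread. It cannot change the 6 ratios of Ikzf2-positive cells to remaining cells or to even rows, which are among the 110.

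No paired analysis was possible because no label ties a hashtag row to a replicate. With 1 library, the intervals leave out the spread between mice. No genotype was compared, and the even and odd rows were matched to a stage by marker genes only.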
